A study of Mus musculus with 4 samples.

Results

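The 78 genes described here carry symbols of mitochondrial ribosomal proteins, 49 of the large subunit (symbols Mrpl) and 29 of the small subunit (Mrps). They were taken by symbol alone, as every gene named Mrpl or Mrps followed by a digit, from 25044 genes in the count tables of 4 mouse heart libraries. The rule itself uses no measured value. A count was recorded in at least 1 library for 61 of the 78 members and for 9344 of the 25044 genes. Pseudogenes with such symbols, 6 of which the RefSeq gene table lists, have no row of their own in the tables, and how reads matching both a gene and such a copy were treated is not given in the sources used here.

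Each library holds poly(A) RNA of 3 whole hearts combined, from mice 12 weeks old, and each group has 1 library. In the HCM pair, named for hypertrophic cardiomyopathy, the library dC10mut comes from cMyBP-CΔC10mut mice, which carry a transgene with a 25-bp variant of MYBPC3, and NTG comes from nontransgenic mice; both carry the strain label C57BL/6. In the DCM pair, named for dilated cardiomyopathy, hearts of cMyBP-C(t/t) mice gave the library tt and hearts of control mice gave the library called control, both with the strain label FvB/N. Cardiac myosin binding protein C, altered in both models, is a thick-filament protein of the sarcomere. The promoter of the transgene and the nature of the t allele are not given in the sources used here. Pooling hides the spread between animals, so a difference between the libraries of a pair cannot be checked against replicates, and the intervals below cover counting error only. In whole-heart RNA, fewer cells of a type and less RNA per cell cannot be told apart.

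The mitochondrial ribosome translates the messages of the mitochondrial genome, which encode core subunits of the respiratory chain and of ATP synthase. Its ribosomal RNAs come from mitochondrial DNA, whereas all of its proteins are encoded in the nucleus, made in the cytosol and imported. Part of these proteins descend from bacterial ribosomal proteins, and the others are particular to mitochondria. The heart, which depends on oxidative metabolism, is rich in mitochondria, and inherited defects of several mitoribosomal proteins cause childhood cardiomyopathy.

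Of the 7 members that were higher in dC10mut than in NTG, only Mrpl34 and Mrpl43 held an ETS core in the 120 bases before the start. Promoter sequences are shown for these 2 and for 2 without it, so the choice does not reflect its share. The sequences let a reader see what lies ahead of genes with a like difference. They are the 120 bases before the RefSeq gene start on GRCm38.p6, written 5′ to 3′ on the gene's strand, and capitals mark the ETS core. Mrpl34 lies on the plus strand at chr8:71464806-71464925, Mrpl43 on the minus strand at chr19:45006443-45006562, Mrpl12 on the plus strand at chr11:120484517-120484636 and Mrpl41 on the minus strand at chr2:24975099-24975218.
Mrpl34: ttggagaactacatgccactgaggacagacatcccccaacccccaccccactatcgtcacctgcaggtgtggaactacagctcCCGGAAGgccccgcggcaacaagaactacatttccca
Mrpl43: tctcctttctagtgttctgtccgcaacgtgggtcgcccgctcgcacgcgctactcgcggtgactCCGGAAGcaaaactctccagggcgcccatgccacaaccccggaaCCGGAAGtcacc
Mrpl12: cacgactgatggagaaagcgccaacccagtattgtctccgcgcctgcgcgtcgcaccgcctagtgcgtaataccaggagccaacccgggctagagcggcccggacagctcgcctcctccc
Mrpl41: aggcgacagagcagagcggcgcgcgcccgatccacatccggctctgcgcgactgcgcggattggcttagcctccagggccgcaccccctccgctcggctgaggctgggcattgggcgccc

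To describe the promoters, 4 short motifs were searched on both strands in windows of 300 bases, from 250 before to 50 after each start, and none of the motifs contains another. RefSeq windows were at hand for 69 of the 78 members, 75 windows in all. The ETS core CCGGAAG, the core recognised by ETS factors such as GABP, was present in 34.7% of the member windows and in 8.86% of all 32851 windows. The NRF1 core CGCATGCG was present in 9.33% against 1.87%, the YY1 core AAGATGGCG in 10.7% against 1.40%, and the GC box GGGCGG in 52.0% against 35.7%. All 4 motifs were more frequent ahead of mitoribosomal genes than ahead of genes at large. A match is a description of letters and not of binding.

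The library totals were between 170543 and 187365 counts, so that 1 count equals 5.19 to 6.23 CPM (counts scaled to the library size after TMM correction), and a count of 0 allows up to 3 counts, or 15.6 to 18.7 CPM, where counting error is the only limit. Of 10 cardiomyocyte markers 8 held counts, among them Actc1 and Myl2. Myh6, the main myosin heavy chain of the adult mouse heart, stood at 0, 0, 0 and 1 counts in NTG, dC10mut, control and tt, and Tnnt2 at 0 in all 4. Mhrt, a noncoding gene antisense to the heavy chain gene Myh7, held 1778, 6620, 698 and 447 counts in the same order. Erythroid, skeletal muscle and adipocyte markers were at 0. Since Myh6 and Tnnt2 were at or near 0 in hearts, this is not read as absence of such cells. Xist held 0, 8, 0 and 14 counts, Tsix 0, 147, 0 and 159, and Ddx3y 1, 0, 14 and 0. The libraries with counts at the Xist locus are the altered libraries of both pairs, so sex composition and genotype cannot be told apart.

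The members held 1057 counts (NTG), 1256 (dC10mut), 1165 (control) and 1185 (tt), between 0.620% and 0.670% of a library. Wherever 4 values stand in a row below, they are those of NTG, dC10mut, control and tt in that order, and gene positions are on GRCm38. Between 55 and 59 members had a count in a given library, and between 22 and 32 had at least 10. Whether a member was seen followed the number of RefSeq transcripts listed for it. Of the 53 members with 1 transcript, 52 had a count, the exception being Mrpl23. Of the 25 members with more than 1 transcript, 9 had a count. The same difference held for all protein-coding genes in the tables, with 52.9% of those with 1 transcript and 19.6% of those with more showing a count.

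**Figure D1:**
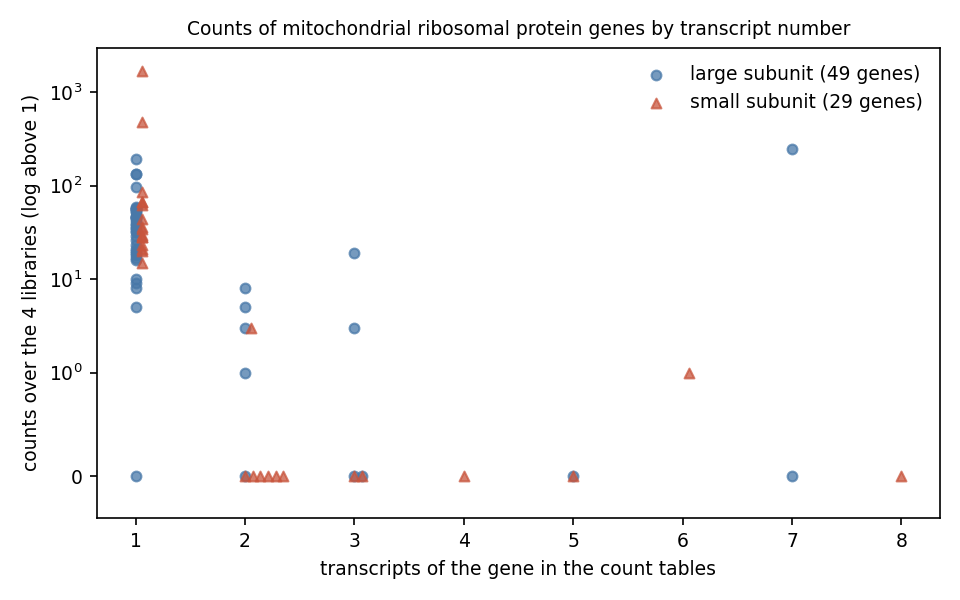
Counts summed over the 4 libraries (vertical axis, linear below 1 and logarithmic above) against the number of transcripts listed for each of the 78 mitoribosomal genes, with circles for the large and triangles for the small subunit. Of the 53 genes with 1 transcript 52 lie above 0, and of the 25 genes with more than 1 transcript 16 lie at 0.

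The 17 members at 0 in all 4 libraries were Mrpl2, Mrpl10, Mrpl23, Mrpl42, Mrpl55 and Mrpl58 of the large subunit, and Mrps2, Mrps10, Mrps11, Mrps12, Mrps14, Mrps16, Mrps17, Mrps18b, Mrps21, Mrps24 and Mrps36 among the Mrps genes. They include Mrpl10, which anchors the stalk that recruits translation factors, Mrpl58, a peptidyl-tRNA hydrolase built into the large subunit, and Mrps12, a protein of the decoding centre. For these genes no level and no difference can be given, and the small subunit, taken by symbol, is represented by 18 of 29 genes.

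A second property of the rows bears on every level below. An exon of another gene on the opposite strand overlaps an exon of 25 of the 78 members, or 32.1%. These 25 members held 80.4% (NTG), 71.1% (dC10mut), 71.8% (control) and 78.1% (tt) of the members' counts. Of all placed genes, 5189 have such an exon and 19521 do not, and the 5189 held between 66.8% and 70.4% of the counts. The libraries were made with a stranded kit, but whether reads were counted by strand is not given in the sources used here, so reads of a member and of its opposite partner cannot be told apart. Whether the rows hold reads of the opposite strand was not tested, so a value given for one of these members may in part or in whole be that of its partner, Mrps25, Mrps7 and the sums they enter included. Pooled values are therefore given with and without the members concerned. For the 53 other members, which strand the counts come from is not known either. Their values are thus not shown to be free of reads from the opposite strand.

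Mrps25, a small-subunit protein particular to mitochondria (chr6:92169512-92184023, minus strand), held the most counts of all members. It had 417 counts (NTG), 355 (dC10mut), 388 (control) and 520 (tt), which is between 28.3% and 43.9% of all member counts and between 56.2% and 69.1% of the small subunit. Of its 6073 transcript bases, 4590 lie under exons of Nr2c2, a nuclear receptor gene on the opposite strand, whose own row held 1, 0, 0 and 0 counts. The log2 ratio of Mrps25 was -0.46 for dC10mut over NTG (interval -0.66 to -0.25) and 0.34 for tt over control (interval 0.15 to 0.53). Both ratios lie below the 2-fold size used here for calling a gene higher or lower.

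Mrps7 (chr11:115604140-115608036, plus strand), the bacterial-type S7 homologue that binds small-subunit ribosomal RNA, was next, with 129, 113, 123 and 114 counts in NTG, dC10mut, control and tt. Its exons overlap exons of Gga3 and Mif4gd, both listed at 0. NTG was the highest of the 4 libraries at 804 CPM, and the others stood at 603, 676 and 592, with a log2 ratio of -0.41 (interval -0.79 to -0.04) in the HCM pair, against -0.19 (interval -0.57 to 0.19) in the DCM pair. Together Mrps25 and Mrps7 made up between 37.3% and 53.5% of the members' counts.

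Per length, the mean level over the 4 libraries was 384 CPM per kilobase for Mrps25, 341 for Mrps7, 200 for Mrpl12, 151 for Mrpl18 and 120 for Mrpl33. The first 4 of these have an opposite-strand exon and Mrpl33, a small protein of bacterial descent, has none. Mrpl34 followed among the members free of overlap with 100.2 CPM per kilobase, and Mrps15 with 98.5. At the other end of the detected members, Mrpl4 and Mrps23 had means of 1.07 and 0.98 CPM per kilobase.

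Mrpl48 held 54, 91, 37 and 67 counts, but none of them on its coding transcript. They lay on 2 of its 6 transcripts with noncoding identifiers, and the coding transcript was at 0 in all 4 libraries. Both altered libraries were higher than their controls, by 0.53 (interval 0.03 to 1.04) in the HCM pair, against 0.77 (interval 0.17 to 1.39) in the DCM pair on the log2 scale. The 2 controls differed by about as much, at -0.72 for control over NTG (interval -1.37 to -0.10). Exons of Rab6a overlap 403 bases of Mrpl48 on the other strand.

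Between dC10mut and NTG, 9 members differed at least 2-fold with a counting interval that left out equality, 7 of them higher in dC10mut and 2 lower. They are 9 of the 59 members with a count in that pair. Of the 59, 11.9% were higher and 3.39% lower, where 1.81% and 2.53% of all 8033 genes with a count in the pair were. Among genes with at least 10 counts in the pair, 7 of 43 members (16.3%) were higher and 2 (4.65%) lower, against 4.26% and 5.69% of 2866 genes. The share of members higher was above the background and the share lower was near it. In NTG, 5 of the 7 members that were higher held 4 counts or fewer.

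Of the 7, Mrpl12 had the most counts. It belongs to the stalk of the large subunit and also binds the mitochondrial RNA polymerase. Mrpl12 (chr11:120484637-120488754, plus strand) held 29 counts (NTG), 80 (dC10mut), 40 (control) and 43 (tt), so that dC10mut stood alone above the other 3 libraries. It was 2.34-fold higher in dC10mut than in NTG, a log2 ratio of 1.23 (interval 0.61 to 1.91). Exons of the noncoding gene Gm16755 overlap 200 of its bases on the other strand. Its stalk partner Mrpl11 held 6, 4, 4 and 4 counts and Mrpl10 none.

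Mrpl28 (chr17:26123503-26126613, plus strand), a large-subunit protein of bacterial descent with no opposite-strand exon, held 8 counts (NTG), 25 (dC10mut), 14 (control) and 10 (tt). Its log2 ratio in the HCM pair was 1.37 (interval 0.23 to 2.78). Mrpl34 (chr8:71464926-71465753, plus strand), a very short protein also conserved from bacteria, held 3, 17, 13 and 12 counts, with a log2 ratio of 2.12 (interval 0.49 to 4.69). For Mrpl34 it is NTG that stands apart below the other 3 libraries, and control was higher than NTG by 1.78 (interval 0.07 to 4.39).

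Mrpl41 (chr2:24972470-24975098, minus strand), a mitochondria-specific protein of the large subunit, held 3 counts (NTG), 18 (dC10mut), 6 (control) and 5 (tt), a log2 ratio of 2.20 (interval 0.59 to 4.77). Mrpl43 (chr19:45005014-45006442, minus strand), also particular to mitochondria, held 4, 19, 8 and 4 counts, with a ratio of 1.91 (interval 0.44 to 4.04). Mrpl43 overlaps Twnk, the gene of the mitochondrial DNA helicase, whose row held 493, 688, 481 and 494 counts. dC10mut was the highest library for both rows of that locus.

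Mrpl14 (chr17:45685722-45698495, plus strand), which lies at the face of the large subunit towards the small one, held 4, 17, 10 and 8 counts, a log2 ratio of 1.75 (interval 0.25 to 3.89). Its opposite partner Tmem63b held 15, 10, 14 and 14. Mrps6 (chr16:92058336-92112227, plus strand), a small-subunit protein of bacterial descent, held 1 count (NTG), 11 (dC10mut), 3 (control) and 0 (tt), with a log2 ratio of 2.76 and an interval of 0.45 to 8.66. Mrps6 was the 1 small-subunit gene among the 7. At such counts the size of the difference is known only to within the interval.

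The 2 members lower in dC10mut were Mrpl19 and Mrpl49, both with an opposite-strand exon. Mrpl19 (chr6:81957826-81965949, minus strand), of bacterial descent, held 41 counts (NTG), 22 (dC10mut), 43 (control) and 29 (tt), so that both altered libraries were below both controls. Its log2 ratio was -1.10 (interval -1.94 to -0.34) in the HCM pair, against -0.64 (interval -1.38 to 0.06) in the DCM pair. Exons of Gcfc2 lie over 1962 of its bases, and that row held 25, 21, 18 and 16 counts. Mrpl49 (chr19:6053630-6057755, minus strand), particular to mitochondria, held 19, 7, 16 and 17 counts, with a ratio of -1.59 (interval -3.16 to -0.35). Mrpl24, with 33, 19, 24 and 20 counts and a ratio of -0.9997 (interval -1.92 to -0.16), lay just short of the 2-fold size, and its partner Rrnad1 held 850, 957, 1054 and 803.

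**Figure D2:**
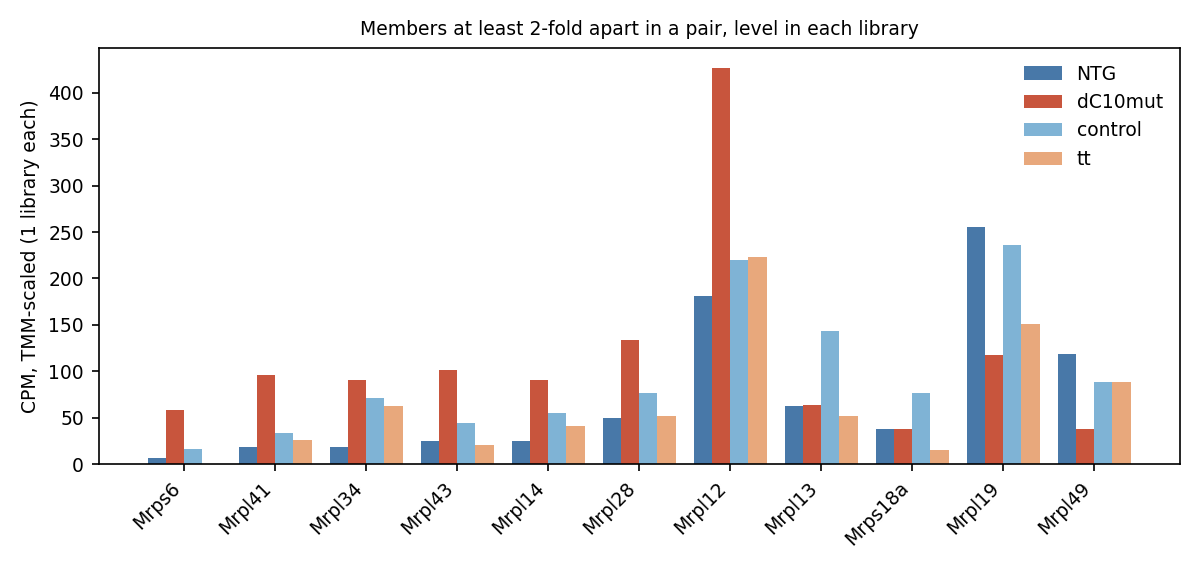
Level of the 11 members past the 2-fold size in either pair, as CPM after TMM scaling, with 1 bar for each of the 4 libraries and no error bar because each group has 1 library. For Mrpl12, Mrpl28, Mrpl41 and Mrpl43 the dC10mut bar is the highest; for Mrpl13 and Mrps18a it is the control bar.

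Over the members with a count, the 7 included, ratios lay more often above 0 than below. The median log2 ratio over the 59 members was 0.22, beside -0.11 over all genes with a count, and 37 members (62.7%) were above 0 against 47.5% of genes. With at least 10 counts in the pair, the medians were 0.22 for 43 members and 0.00 for all genes. The large subunit had a median of 0.52 over 27 such genes and the small subunit 0.06 over 16. Among members with no opposite-strand exon and at least 10 counts the median was 0.41 over 25, beside 0.13 over all 1582 such genes. Of 38 members with a count and no opposite-strand exon, 4 (10.5%) were higher and 0 lower, where 1.95% of 5347 such genes were higher and 1.63% lower. Between the unaltered libraries, control over NTG, the median was 0.37 over 59 members, beside -0.12 over all genes with a count. A median above that of all genes was thus seen without either alteration. No p-value belongs to these medians.

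Transcript length was compared because the members are short. With at least 10 counts in the HCM pair, their median length was 1398 bp and that of all genes 2620 bp. The 968 genes between 846.5 and 2249 bp, the quartiles of the members, had a median log2 ratio of 0.04, and the 22 members in that band 0.19. In the DCM pair 1000 genes in the band had a median of -0.08 and 23 members -0.51. The members' medians lay further from 0 than those of genes of like length in both pairs. The same was seen between the unaltered libraries. For control over NTG the median was 0.26 over 22 members in the band and -0.03 over 958 genes.

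In the DCM pair, 2 members were lower in tt and 0 higher, out of 59 with a count in that pair. Lower were 3.39% of the 59 members, against 1.58% of all 8248 genes, and 2.7% of genes were higher. With at least 10 counts, 2 of 44 members (4.55%) were lower against 3.51% of 3078 genes, and 6.04% of genes were higher. The share lower was near the background. Of 38 members with a count and no opposite-strand exon, 1 (2.63%) was lower and 0 higher, where 1.3% of 5532 such genes were lower and 1.95% higher.

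Mrpl13 (chr15:55534095-55557312, minus strand), a large-subunit protein of bacterial descent, held 10 counts (NTG), 12 (dC10mut), 26 (control) and 10 (tt). Exons of Mtbp overlap 330 of its bases on the other strand. The log2 ratio of Mrpl13 was -1.42 for tt over control (interval -2.68 to -0.36). The control library alone was high, and control was also above NTG, by 1.16 (interval 0.10 to 2.41). Mrps18a (chr17:46111004-46128908, plus strand), which sits in the large subunit of the assembled ribosome despite its symbol, held 6, 7, 14 and 3 counts, with a ratio of -2.13 (interval -4.74 to -0.46). There too control was the highest of the 4 libraries.

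Although few members reached 2-fold, most lay below 0 in the DCM pair. The median log2 ratio was -0.36 over 59 members and -0.05 over all genes with a count. With at least 10 counts, 32 of 44 members were below 0 and the median was -0.48, beside -0.06 over all genes. Members of bacterial descent had a median of -0.57, with 17 of 20 below 0, and those particular to mitochondria -0.20, with 15 of 24 below 0. The difference between these classes was not tested. The library control, against which tt is set here, was itself above NTG, with a median of 0.37 over 59 members. The classes also lay apart there. With at least 10 counts, the median for control over NTG was 0.40 over 20 members of bacterial descent. It was -0.05 over 21 members particular to mitochondria.

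Among the members with at least 20 counts in the pair, the lowest ratios after Mrpl13 were those of Mrpl45, at -1.04 (interval -2.34 to 0.08), and Mrpl37, at -0.93 (interval -2.54 to 0.46). Mrpl45 (chr11:97314923-97329920, plus strand), which sits by the exit tunnel of the nascent chain and binds the inner membrane, held 7 counts (NTG), 16 (dC10mut), 20 (control) and 10 (tt). Mrpl37 held 5, 4, 13 and 7. Both intervals include equality. The highest ratios were those of Mrpl51, with 11, 12, 12 and 22 counts and a ratio of 0.77 (interval -0.29 to 1.94), Mrpl48, and Mrpl38, with 5, 10, 8 and 12 counts and a ratio of 0.48 (interval -0.91 to 2.00).

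The rest of the 12 most counted members held between 11 and 48 counts per library. Mrpl18, which has also been linked to import of 5S ribosomal RNA into mitochondria, held 26, 48, 35 and 24 counts. Mrps27 held 21, 26, 24 and 14, Mrps9 13, 17, 20 and 17, Mrps15 11, 15, 25 and 16, and Mrps35 11, 18, 21 and 12. All 5 had a positive ratio for dC10mut over NTG and a negative one for tt over control, none of them 2-fold, and each of these intervals includes equality. Mrpl18 and Mrps27 have an opposite-strand exon, and Mrps9, Mrps15 and Mrps35 have none.

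**Figure D3:**
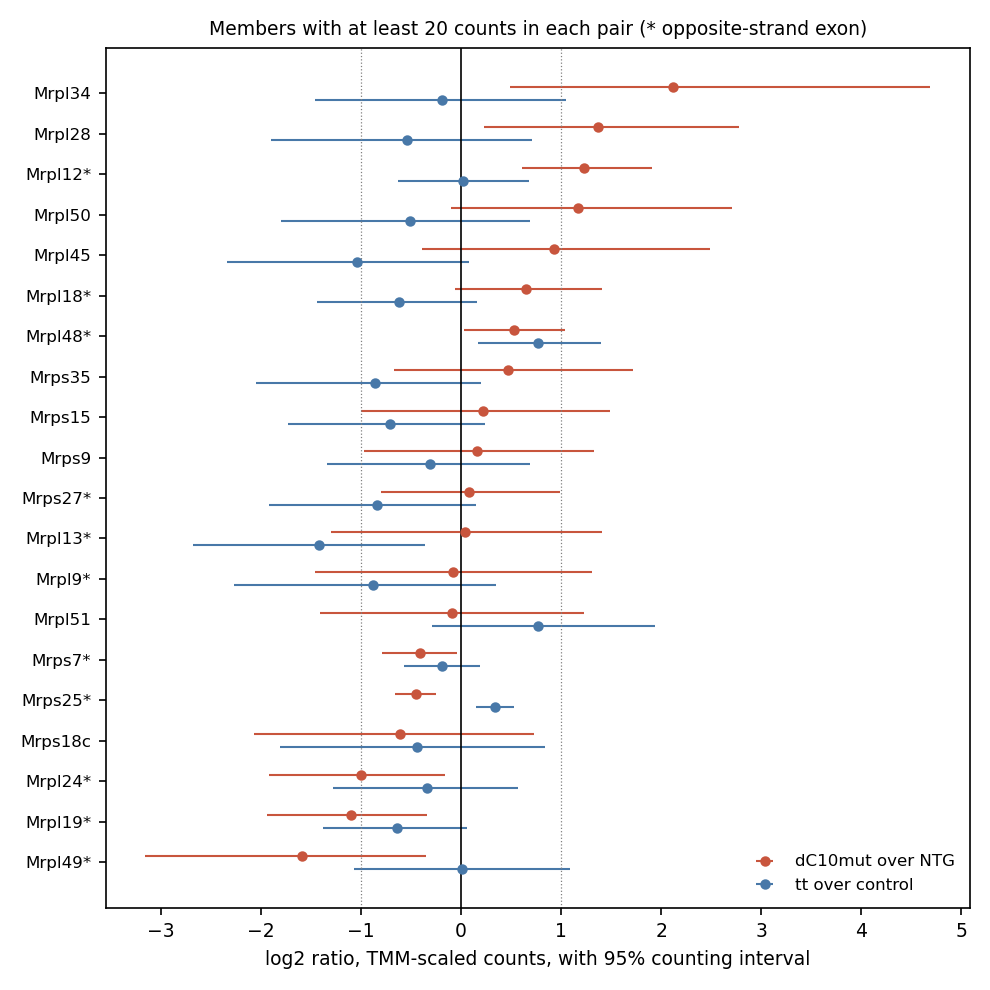
Log2 ratios with 95% counting intervals for the 20 members with at least 20 counts in each pair, dC10mut over NTG in red and tt over control in blue, ordered by the HCM ratio; dotted lines mark 2-fold and an asterisk marks an opposite-strand exon (11 of 20). In the HCM pair 12 of the 20 are above 0, in the DCM pair 15 are below 0, and 10 are both.

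Members linked to human cardiomyopathy were thinly covered. Mrpl44 held 12 counts (NTG), 26 (dC10mut), 11 (control) and 7 (tt), Mrps22 held 10, 6, 8 and 10, Mrpl3 held 0, 0, 1 and 2, and Mrps14 none. Neither Mrpl44 nor Mrps22 differed by the rule of size in either pair. At these counts a difference in Mrpl3 or Mrps14 was not detectable. Mrpl44 has an opposite-strand exon and Mrps22 has none.

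Pooled counts have narrower counting intervals than those of single members. The large subunit held 391 counts (NTG), 624 (dC10mut), 492 (control) and 433 (tt), or 2438, 3332, 2705 and 2248 CPM. dC10mut was the highest, and its level was 1.37-fold that of NTG, a log2 ratio of 0.45 (interval 0.27 to 0.64). tt was below control by 1.20-fold, a log2 ratio of -0.27 (interval -0.46 to -0.08). The 2 control libraries differed by 0.15 (interval -0.04 to 0.35).

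The small subunit held 666, 632, 673 and 752 counts, or 4152, 3375, 3700 and 3905 CPM. Here dC10mut was the lowest library, with a log2 ratio of -0.30 (interval -0.46 to -0.14), and tt over control was 0.08 (interval -0.07 to 0.23). Control over NTG was -0.17 (interval -0.32 to -0.01). These values rest on Mrps25 and Mrps7. Without them the small subunit held 120, 164, 162 and 118 counts, and the ratios became 0.23 (interval -0.12 to 0.58) in the HCM pair, against -0.54 (interval -0.89 to -0.19) in the DCM pair, the same directions as the large subunit.

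All 78 genes together gave a log2 ratio of 0.03 (interval -0.09 to 0.14) in the HCM pair, against -0.06 (interval -0.18 to 0.06) in the DCM pair. These sums near 0 rest on Mrps25 and Mrps7. Without them the other members gave 0.40 (interval 0.24 to 0.56) in the HCM pair, against -0.33 (interval -0.50 to -0.16) in the DCM pair. The 53 members without an opposite-strand exon, 40 of them with a count, also gave another picture than all 78 together. They held 207 counts (NTG), 363 (dC10mut), 328 (control) and 260 (tt), or 1291, 1938, 1803 and 1350 CPM. dC10mut and control were high, and NTG and tt were low.

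For those 53 genes dC10mut was above NTG by a log2 ratio of 0.59 (interval 0.34 to 0.84), and tt was below control, with a log2 ratio of -0.42 (interval -0.66 to -0.18). Both subunits followed that order. The large subunit gave 0.72 (interval 0.41 to 1.04) and -0.34 (interval -0.64 to -0.04), and the small subunit 0.33 (interval -0.10 to 0.77) and -0.57 (interval -0.99 to -0.15). The unaltered libraries themselves lay almost as far apart, with control 1.40-fold above NTG, a log2 ratio of 0.48 (interval 0.23 to 0.74). A pooled difference of that size was therefore seen without either alteration, between libraries that also differ in strain label.

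**Figure D4:**
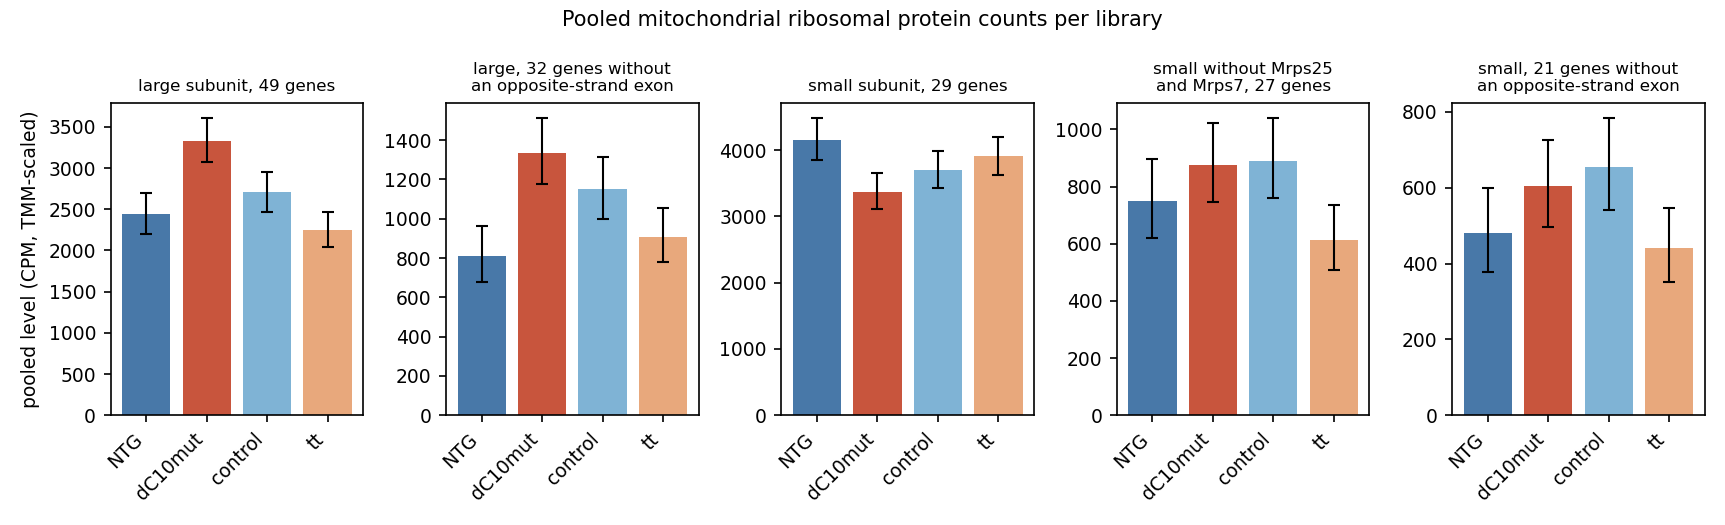
Pooled level of mitoribosomal genes in each library (CPM after TMM scaling, axis from 0) for the large subunit, the small subunit and subsets of them, with exact Poisson 95% intervals for counting error. In the 32 large-subunit genes and the 21 small-subunit genes without an opposite-strand exon, dC10mut and control stand above NTG and tt; the small subunit as a whole does not show this order.

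Marker lists of other cell types were set beside this order. Summed pericyte and smooth muscle markers stood at 617 CPM (NTG), 908 (dC10mut), 852 (control) and 670 (tt), with 3 of 5 markers holding counts and Pdgfrb and Myh11 at 0. In that list Rgs5 held 65, 120, 95 and 86 counts and Acta2 6, 24, 24 and 17, whereas Tagln, at 28, 26, 36 and 26, did not follow the order of the sum. Macrophage markers stood at 87.3, 214, 203 and 51.9 CPM, with 4 of 5 holding counts and Adgre1 at 0. Lyz2 alone held 6, 28, 28 and 5 of the macrophage counts. In both summed lists dC10mut and control were above NTG and tt, as they were for the pooled members without an opposite-strand exon. All 78 members together did not show this order, with NTG at 6590 CPM above control at 6405. The part of these cells in the result was not tested. Summed cardiomyocyte markers stood at 28543, 34837, 27500 and 25833 CPM, highest in dC10mut, as were Myl2, Actc1 and Tnni3, the most counted of them. Mybpc3, Ryr2 and Ttn did not follow that order. Their log2 ratios were -0.13, -0.06 and -0.37 for dC10mut over NTG, with intervals that include equality. For tt over control they were 0.55, 0.43 and 0.54, where only the interval of Ttn includes equality. Endothelial markers stood at 430, 240, 324 and 161 CPM and fibroblast markers at 249.4, 149.5, 324.4 and 150.6. Nppa, the 1 atrial marker with counts, stood at 56.1, 117, 330 and 83.1.

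The share of the large subunit among all mitoribosomal counts needs no scaling between libraries. It was 37.0% in NTG (exact Clopper-Pearson 95% interval 34.07 to 39.98), 49.7% in dC10mut (46.9 to 52.5), 42.2% in control (39.38 to 45.13) and 36.5% in tt (33.79 to 39.35). It was higher in dC10mut than in NTG, and higher in control than in tt, with intervals that lay apart in both pairs, narrowly so in the DCM pair. Without Mrps25 and Mrps7 the share was 76.5%, 79.2%, 75.2% and 78.6%, and all 4 intervals overlapped. With Mrps18a and Mrps30 counted in the large subunit, where they sit in the assembled ribosome, the shares were 38.1%, 50.7%, 44.4% and 37.2%.

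Control against NTG served as a yardstick, although these libraries differ in strain label. Of 59 members with a count, 4 (6.78%) were higher in control and 0 were lower, where 1.4% of all 8152 genes were higher and 1.69% lower. With at least 10 counts 3 of 41 members (7.32%) were higher, against 3.17% of genes, and 3.45% of genes were lower. Besides Mrpl13 and Mrpl34, they were Mrpl45, with a log2 ratio of 1.28 (interval 0.03 to 2.82), and Mrpl15, a large-subunit protein of bacterial descent. Mrpl15 (chr1:4773198-4785750, minus strand) held 0 counts (NTG), 5 (dC10mut), 9 (control) and 5 (tt), and was at least 2.65-fold higher in control than the 3 counts that 0 allows in NTG for counting error alone; it is 1 of the members with more than 1 transcript. The share of members above the background was thus seen between control libraries as well. The members' median log2 ratio was 0.37 over the 59, beside -0.12 over all genes. With at least 10 counts it was 0.28 over 41 members, beside -0.02. Among those with no opposite-strand exon it was 0.44 over 24 members, beside 0.06 over 1562 genes. Library totals in place of TMM factors shifted the scale of this comparison by 0.13 in log2 units, and members with few counts by less.

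A difference common to both models was examined by the quasi-likelihood test of edgeR, blocked on the pair, which leaves 1 residual degree of freedom. Of 58 members tested, 0 had a Benjamini-Hochberg adjusted p under 0.05, where 0.245% of all genes (18 of 7360) did. At an unadjusted p under 0.05 stood 1 member (1.72%) and 4.48% of all genes. That member was Mrpl19, with a common log2 difference of -0.88 and a Benjamini-Hochberg adjusted p = 0.997 in edgeR, lower in both altered libraries. DESeq2 gave 0 members both at an adjusted and at an unadjusted p under 0.05.

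Mitoribosomal subunits with other symbols were measured for 4 of 5 genes, Dap3 being at 0. Gadd45gip1 (also called Crif1), which lies near the exit tunnel, held 754, 733, 854 and 691 counts in NTG, dC10mut, control and tt, and is a gene with an opposite-strand exon. Aurkaip1, of the small subunit, held 9, 16, 16 and 6, and was lower in tt than in control by a log2 ratio of -1.42 (interval -3.14 to -0.07). It has no opposite-strand exon. Chchd1 held 11, 20, 13 and 15.

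The counts called in the next lists stand beside shares over all genes of 1.81% higher and 2.53% lower in the HCM pair, and 2.7% higher and 1.58% lower in the DCM pair; in lists this short, 1 gene is a larger share than these. Of 23 genes for assembly of the mitoribosome and modification of its RNA, 19 were measured in the HCM pair, 1 higher and 1 lower, and 20 in the DCM pair, again 1 higher and 1 lower. Mrm1, a methyltransferase of the large ribosomal RNA, held 7, 21, 8 and 1 counts, higher in dC10mut (log2 ratio 1.31, interval 0.07 to 2.84) and lower in tt (log2 ratio -2.57, interval -8.55 to -0.18). Mpv17l2 held 9, 1, 7 and 6 and was lower in dC10mut, at -2.84 (interval -8.85 to -0.54). Mterf3, which acts on mitochondrial transcription and large-subunit assembly, held 3, 5, 2 and 10 and was higher in tt, at 2.00 (interval 0.01 to 5.47). Fastkd2 held 5, 10, 6 and 8. Mrm1 thus had opposite directions in the 2 pairs, on few counts. Mpv17l2 and Mterf3 have an opposite-strand exon, and Mrm1 has none.

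Among 14 translation factors, 10 were measured in the HCM pair with 0 higher and 1 lower, and 11 in the DCM pair with 0 higher and 1 lower. Tsfm, the exchange factor of the mitochondrial elongation factor Tu, held 10, 2, 1 and 0 counts and was lower in dC10mut, at -2.27 (interval -5.78 to -0.32). Oxa1l, the inner membrane insertase that receives chains from the mitoribosome, held 16, 16, 25 and 11 and was lower in tt, at -1.23 (interval -2.44 to -0.19). It overlaps Slc7a7 on the other strand. The most counted factors were Gfm2, a ribosome recycling factor, with 92, 119, 124 and 98, and Mtres1 with 26, 34, 24 and 32, neither past 2-fold.

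Of 17 mitochondrial aminoacyl-tRNA synthetases, 9 were measured in the HCM pair, against 10 in the DCM pair. In the HCM pair 0 differed by the rule of size, and in the DCM pair 1 was higher in tt. That gene was Mars2, named after its values were seen, with 0, 0, 0 and 7 counts. Iars2, the most counted, held 28, 29, 57 and 53. Of 13 genes for transcription and replication of mitochondrial DNA, 8 were measured in each pair and 0 differed. Slirp, an RNA-binding protein that stabilises mitochondrial messages, held 21, 23, 27 and 26. Of 9 regulators of mitochondrial biogenesis, 4 were measured in each pair and 0 differed. Gabpa, whose protein is the ETS factor subunit of GABP, held 70, 87, 48 and 48 and faces Atp5j, and the nuclear receptor Esrra held 12, 27, 24 and 20.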

How the data were processed

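Each deposited table pairs RefSeq transcript identifiers with raw counts of reads, which are whole and not normalized. STAR, HTSeq and the build mm10 are named in the submitters' processing notes, while versions, counting mode and strand setting are not given in the sources used here. Per the labels' protocols, polyadenylated RNA was selected and the kit keeps strand. The mitoribosomal members and the other gene lists were chosen with earlier results of these data known.

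Of 41449 transcripts, 41252 matched a RefSeq symbol, and 197 were kept under their identifier. Counts were summed per symbol. Positions and opposite-strand exons came from GENCODE M21, which is on the same assembly as mm10, and promoter windows from RefSeq on GRCm38.p6. A gene's length is the median of its matched transcripts.

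With 1 library per group, ratios within a pair were read by a rule of size without p-values. TMM factors over the 4 libraries came from edgeR 4.0.16, and 0.5 counts, adjusted for library size, were added before taking the log2 ratio. A gene was called higher or lower where the absolute log2 ratio was at least 1 and the exact Clopper-Pearson conditional binomial 95% interval left out equality. Pooled counts have exact Poisson intervals. Polymerase chain reaction copies are not independent molecules, so intervals and floors cover counting error only. For the common difference, the quasi-likelihood test of edgeR took the genes that reached 1 CPM in 2 or more libraries, and DESeq2 1.42.0 was an alternative. Differences between the pairs' ratios have a normal approximation of the counting interval.

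Members named are those called in a pair or between the controls, the 12 with the most counts, the 3 highest and 3 lowest ratios per pair among those with at least 20 counts, and those at 0; of the other lists, the genes called on at least 10 counts and the 2 with the most counts. Members linked to cardiomyopathy, the stalk proteins, Mrpl33, Mrpl4, Mrps23 and Mrps30 were named after their values were seen. A gene that the rule takes is not reported here. Alternatives were other scalings, another prior count, another fold, no filter, no pair block, leaving out Mrps25, leaving out members with an opposite-strand exon and, chosen after seeing the data, leaving out Mrps25 and Mrps7.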

Additional observations from a re-analysis of the deposited data

Results flagged for a closer look

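For 5 of the 20 members with at least 20 counts in each pair (25%), the log2 ratios of the 2 pairs had opposite signs and differed at least 2-fold and by more than the counting interval of their difference. The same held for 206 of 1619 genes (12.7%). With 1 library per group this is not a test of the models, and control libraries that differ from each other enter these values. The difference (HCM minus DCM) was 1.27 for Mrpl18 (interval 0.25 to 2.29), 1.91 for Mrpl28 (interval 0.27 to 3.55), 2.31 for Mrpl34 (interval 0.21 to 4.41) and 1.97 for Mrpl45 (interval 0.28 to 3.66). It was -1.60 for Mrpl49, with an interval of -3.19 to -0.01.

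Pooled counts were flagged without the 2-fold condition, where the ratios of the pairs had opposite signs and differed by more than the counting interval of their difference. The difference between the pairs was 0.72 for the large subunit (interval 0.46 to 0.98) and -0.38 for the small subunit (interval -0.59 to -0.16). For members without an opposite-strand exon it was 1.06 for the large subunit (interval 0.64 to 1.48), 0.90 for the small subunit (interval 0.32 to 1.48) and 1.00 for both together (interval 0.66 to 1.34). The difference for the small subunit thus turned positive when the members with an opposite-strand exon were left out. Leaving out Mrps25 alone also turned it, to 0.31 (interval -0.04 to 0.66). Without Mrps25 and Mrps7 it was 0.77 (interval 0.28 to 1.25).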

How the results depend on the processing

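Over members without an opposite-strand exon, 4 were called for dC10mut over NTG and 1 for tt over control, in place of 9 and 2; fewer members enter these counts. The pooled log2 ratios over those members were 0.72 (large), 0.33 (small) and 0.59 (all) in the HCM pair, -0.57 (small) and -0.42 (all) for tt over control, and 0.50 (large), 0.45 (small) and 0.48 (all) for control over NTG. Without Mrps25, the small subunit and all members gave -0.070 and 0.27 in the HCM pair, -0.38 and -0.31 for tt over control, and 0.013 and 0.098 for the controls, and the large-subunit share was 61.1%, 69.3%, 63.3% and 65.1% in NTG, dC10mut, control and tt. Without Mrps25 and Mrps7, they gave 0.23 and 0.40, -0.54 and -0.33, and 0.25 and 0.17, and the share was 76.5%, 79.2%, 75.2% and 78.6%. With library totals alone, all members gave 0.090 for control over NTG. In the alternatives that leave out members, the small subunit turned direction for tt over control and for the controls, and for dC10mut over NTG unless Mrps25 alone was left out. All members together turned direction for the controls, also with library totals. The cause of these shifts was not tested beyond the members left out. Of 75 ratios of named members, 75 kept their call with DESeq2 size factors, 75 with a prior count of 2 and 74 with library totals, with which Mrps15 was called higher in control than in NTG, at 1.10. Ratios near 0 that were not called changed sign in 1 case with DESeq2 size factors (Mrps18a in the HCM pair) and in 3 with library totals (also Mrpl19 and Mrpl51 between the controls). The common test gave 0 members under every setting run; without the pair block 0 genes passed, without the filter 11, with library totals 9 and with DESeq2 0, in place of 18. No paired analysis was possible because each group has 1 library, so no replicates share a number; the block in the common test is the pair of libraries. Of the 17 members at 0, 16 have more than 1 transcript, so their 0 is not read as a limit on their level.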
